A study of Mus musculus with 6 samples.

Results

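Imprinted genes are genes of which mainly the copy inherited from 1 parent is transcribed. A list of 42 such mouse genes in 18 chromosomal domains was read on 6 expression arrays, and 37 of the 42 were measured among 18193 genes in all. A gene counted as measured if at least 1 probe set, a group of array probes that reads 1 transcript, was annotated with its symbol alone. For genes with several probe sets, the one with the highest mean over the 6 arrays was used. H19, Rtl1, Dio3, Zrsr1 and Slc22a3 had no such probe set and are not analysed here. The 37 genes were grouped by domain and by the parental copy that is known to be expressed, which was taken from general knowledge, since the arrays add up both copies.

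The cells were clone C6, a clone of mouse myeloid progenitors on a Rosa26rtTA C57BL/6J background. It carries a vector from which doxycycline, acting through the rtTA activator, switches on a codon-optimized murine Evi1 together with EGFP, and the clone is described as dependent on Evi1. EVI1, a product of the Mecom locus, is a DNA-binding protein with zinc fingers that keeps blood stem cells from differentiating and is overexpressed in some myeloid leukaemias. The withdrawal group held 3 arrays of cells taken 48 h after doxycycline was removed, and the doxycycline group held 3 arrays of cells kept under 1 µg/ml of the drug. Both groups carried the same vector and grew in the same cytokines, interleukin 3 at 20 ng/ml with stem cell factor, interleukin 11 and Flt3 ligand at 50 ng/ml each. All arrays come from 1 clone, and the labels do not say that replicates were separate cultures, so p-values rest on the spread among these arrays, which may be technical. For the imprinted genes, the comparison asks whether any of them differs 48 h after the drug that induces Evi1 is removed. The drug itself also differed between the groups, and no cells without the vector were on the 6 arrays. Loss of Evi1 induction and removal of doxycycline therefore cannot be told apart.

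Imprints are methyl marks set on DNA in the egg or the sperm, which silence 1 parental copy of a gene or of a whole domain through a control region. Many imprinted genes act on fetal and placental growth, and as a rule paternally expressed ones promote it and maternally expressed ones restrain it. In blood, several of them are known from stem cells, where Cdkn1c, H19 and the growth factor gene Igf2 are linked to quiescence or self-renewal. The domain on distal chromosome 7 holds a maternally expressed group, controlled through the Kcnq1ot1 transcript, and beside it the pair of Igf2 and H19.

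Values are deposited log2 levels. Each difference is given in log2 units as withdrawal minus doxycycline, ± its standard error, which limma estimated with 3 arrays in each group. A gene is said to have risen or fallen if its limma p, adjusted by Benjamini-Hochberg over all 45037 probe sets, was below 0.05. A level is called near the floor where both group means lay under 5.18, and above the floor otherwise. That value is the 95th percentile of the means of 77 probe sets for olfactory and vomeronasal receptors. Levels of different genes are not compared with each other, because probe sets differ in brightness.

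After withdrawal, Phlda2 fell and the other 36 measured imprinted genes did not pass the test. Phlda2, a maternally expressed gene whose small pleckstrin homology domain protein limits growth of the placenta, was 3.56-fold lower. The 36 others differed by between -0.39 (Mest) and 0.38 (Dlk1), and 18 were lower and 18 higher after withdrawal. Of the 37 genes 1 was therefore lower and 0 higher at this threshold, against a background of 1.57% of all genes lower and 1.20% higher (2.77% in either direction). Among the 16 measured members above the floor 1 passed, against 4.28% of all genes above it. At an unadjusted p below 0.05 in limma, 1 member was lower and 2 were higher (Dlk1 and Ppp1r9a), against 16.3% of all genes in either direction. The median difference was -0.003 over the 37 genes and 0.01 over all genes. The groups of 3 arrays did not overlap for 9 of the 37, against 24.7% of all genes, so this count was close to the background.

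The promoters printed here belong to Phlda2, which carries the single change, and to 3 other genes of its domain that did not pass. These 3 do not lie next to Phlda2, and their imprint is known mainly from the placenta. For Cdkn1c and Kcnq1, also of this domain, no promoter sequence was found. Each is the 250 bases before the gene's start in RefSeq (GRCm38.p6), 5′ to 3′ on the gene's own strand, with CG pairs, the sites of DNA methylation, in capitals. They lie at chr7:143502525-143502774 (minus strand) for Phlda2, chr7:143069118-143069367 (plus strand) for Tssc4, chr7:143052500-143052749 (plus strand) for Cd81 and chr7:142969265-142969514 (minus strand) for Ascl2.
Phlda2: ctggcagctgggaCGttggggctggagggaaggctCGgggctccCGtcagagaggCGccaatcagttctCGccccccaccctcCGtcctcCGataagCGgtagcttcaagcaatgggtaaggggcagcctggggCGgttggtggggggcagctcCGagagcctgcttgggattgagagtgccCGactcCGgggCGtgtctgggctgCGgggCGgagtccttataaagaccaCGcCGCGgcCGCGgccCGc
Tssc4: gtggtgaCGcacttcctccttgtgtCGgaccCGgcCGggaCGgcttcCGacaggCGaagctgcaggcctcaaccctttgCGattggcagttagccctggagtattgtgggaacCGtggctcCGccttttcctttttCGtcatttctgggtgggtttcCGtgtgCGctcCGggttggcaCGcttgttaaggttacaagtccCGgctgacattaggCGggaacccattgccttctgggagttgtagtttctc
Cd81: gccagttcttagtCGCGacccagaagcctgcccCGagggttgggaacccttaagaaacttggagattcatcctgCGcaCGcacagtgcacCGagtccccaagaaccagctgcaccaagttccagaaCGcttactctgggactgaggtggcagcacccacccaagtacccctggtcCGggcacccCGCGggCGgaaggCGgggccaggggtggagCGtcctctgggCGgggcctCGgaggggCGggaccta
Ascl2: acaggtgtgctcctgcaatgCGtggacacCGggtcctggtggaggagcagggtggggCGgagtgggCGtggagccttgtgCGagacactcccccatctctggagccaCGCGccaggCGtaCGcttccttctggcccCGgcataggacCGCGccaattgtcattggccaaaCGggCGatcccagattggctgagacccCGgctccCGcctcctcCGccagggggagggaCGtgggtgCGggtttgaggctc
All 4 stretches were rich in CG pairs. The promoter of Phlda2 held 21 CG pairs at 68.8% G and C, that of Tssc4 17 at 58.0%, that of Cd81 16 at 65.6% and that of Ascl2 19 at 67.6%. Promoter sequences were found for 33 of the 42 genes, 50 promoters in all, with a median of 10 CG pairs and 57.0% G and C, against medians of 6 CG pairs and 52.4% over 32841 promoters of the table.

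Letters of factor motifs were searched on both strands of the same 250 bases. The letters GACAAGATA, bound by the first zinc finger domain of EVI1, were in 1 of the 50 promoters (1 of those of Asb4) and in 0.107% of all promoters. The letters GAAGATGAG of the second zinc finger domain were in 0 of the 50 and in 0.347% of all. The GATA factor motif AGATAA, which can overlap the EVI1 motif, was in a promoter of Rian alone among the 50 and in 9.99% of all, and the ETS motif ACTTCCT was in promoters of Igf2r and Tssc4 and in 7.69% of all. None of these 4 motifs was in the 250 bases of Phlda2. The shorter GATAA, a part of AGATAA and searched only after the sequence had been read, was in promoters of Phlda2, Asb4, Commd1, Dlk1 and Rian and in 22.6% of all. A match is a stretch of letters, not a measured binding site.

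The Kcnq1 domain of distal chromosome 7 had all 6 of its listed genes measured. Phlda2 stood at 6.84, 6.78 and 6.77 on the withdrawal arrays, against 8.65, 8.54 and 8.70 on the doxycycline arrays. Every withdrawal array lay far below every doxycycline array, and the spread within either group was small. The means were 6.79 ± 0.04 after withdrawal and 8.63 ± 0.08 under doxycycline (SD, n = 3 each), a difference of -1.83 ± 0.07 (limma adjusted p = 4.3e-05). By size this was the 12th largest fall among the 18193 genes. The gene was read by 1 probe set, so no other probe set bears on it. In RNA from a whole culture, fewer cells with the transcript and less of it per cell cannot be told apart. Leaving out any 1 array, or withdrawal replicate 3 and doxycycline replicate 1 together, kept the call, with a difference between -1.88 and -1.80 over all 16 alternatives.

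Among the listed maternally expressed genes of this group, Cdkn1c lies nearest to Phlda2. It encodes the cell cycle inhibitor p57, which helps hold blood stem cells in quiescence. It was at 4.42, 4.55 and 4.35 after withdrawal, against 4.57, 4.62 and 4.63 under doxycycline, near the floor in both. The groups did not overlap, but the difference of -0.17 ± 0.07 did not pass (limma adjusted p = 0.363). Tssc4, a nuclear gene with a role in splicing complexes, was at 9.11, 9.10 and 9.11, against 8.93, 8.98 and 8.99 under doxycycline, a difference of 0.14 ± 0.06 (limma adjusted p = 0.355). Cd81, which encodes a tetraspanin membrane protein, was at 10.57, 10.62 and 10.58 after withdrawal, against 10.49, 10.51 and 10.57 under doxycycline. For Tssc4 and Cd81 the withdrawal arrays lay just above the doxycycline arrays, with no test passed. Kcnq1, a potassium channel gene (0.06 ± 0.10), and Ascl2, a basic helix-loop-helix factor of the placenta (0.17 ± 0.08), were near the floor and did not pass either. Igf2, the paternally expressed growth factor gene of the adjoining domain, was at 5.78, 5.65 and 5.95 after withdrawal, against 5.76, 5.72 and 5.77 under doxycycline, and these groups overlapped.

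**Figure D1:**
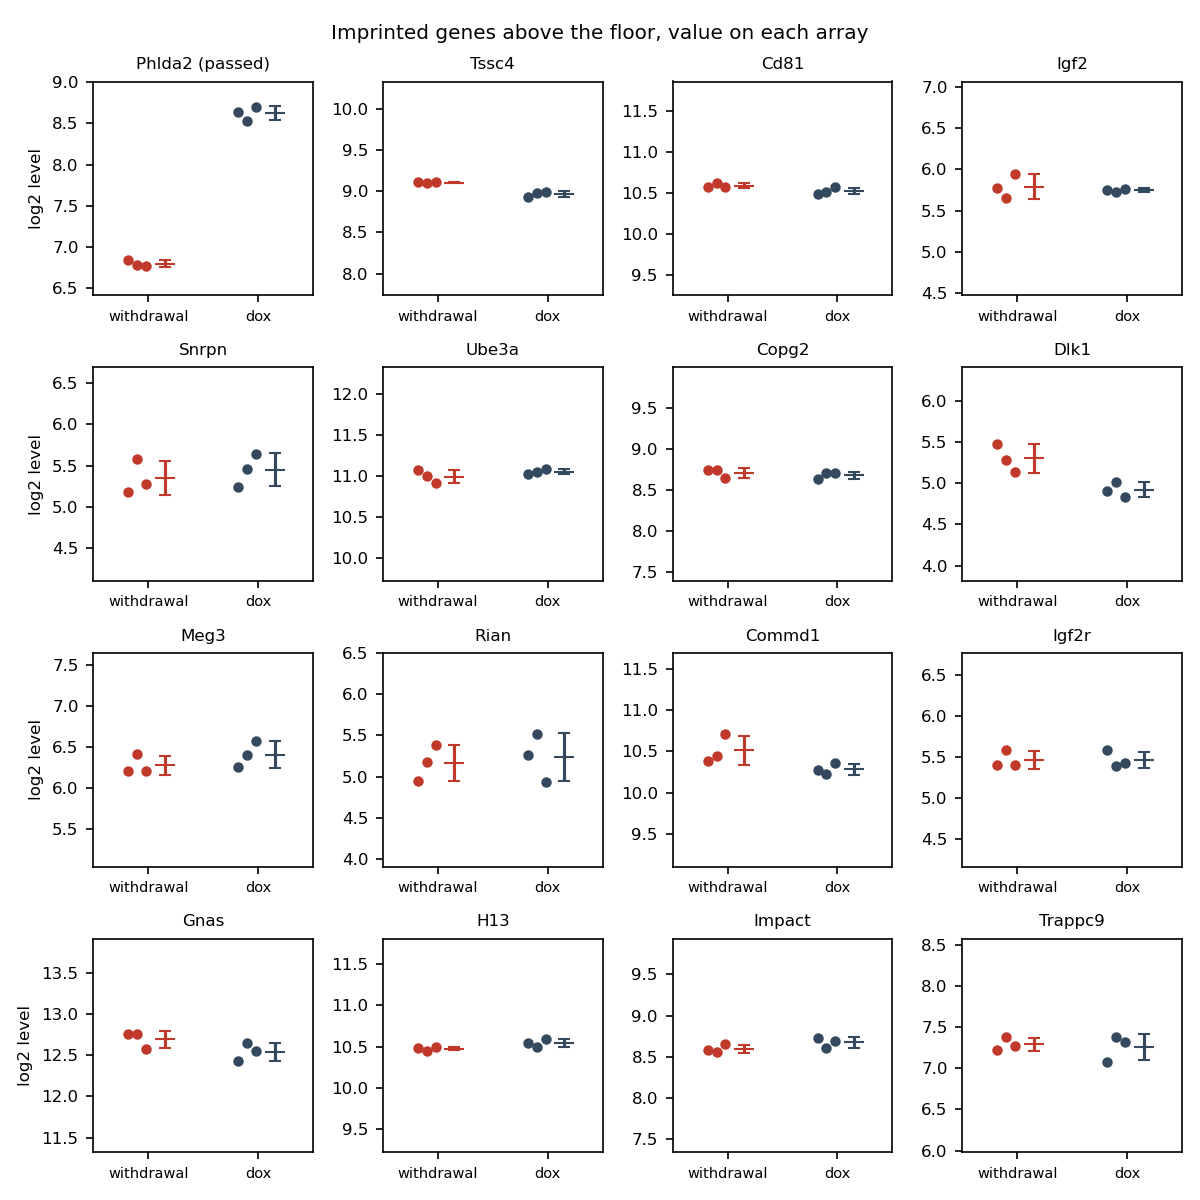
Log2 level on each array for the 16 imprinted genes above the floor, withdrawal (red, left) and doxycycline (dark blue, right), with 3 arrays per group as dots and the mean with its SD beside them; each panel spans the same height on the log2 scale. The 3 withdrawal arrays of Phlda2 sit between 6.77 and 6.84 and its doxycycline arrays between 8.54 and 8.70, while no other gene shows a difference above 0.38.

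Genes that lie beside Phlda2 were then read in their RefSeq order, from Igf2 to Dhcr7, a stretch in which 26 genes were measured. Besides Phlda2, which fell, 2 genes rose and 23 did not pass, against 1.57% lower and 1.20% higher over all genes. The stretch ends at Dhcr7, itself 1 of the 2 that rose, so the count depends on where it was ended. Slc22a18, an imprinted transporter gene next to Phlda2 on 1 side, differed by 0.12 ± 0.10, and Nap1l4, a histone chaperone gene next to it on the other side, by -0.01 ± 0.07. Kcnq1ot1, the noncoding transcript that silences this group on the paternal chromosome, differed by -0.04 ± 0.08 (limma adjusted p = 0.892), with means of 8.75 after withdrawal and 8.79 under doxycycline. The 2 that rose were Dhcr7, the enzyme of the last step of cholesterol synthesis (0.77 ± 0.09, limma adjusted p = 0.00790), and E230032D23Rik (0.61 ± 0.07, limma adjusted p = 0.00586), which was named after its value was seen. Leaving out doxycycline replicate 3 ended the call of Dhcr7 (adjusted p = 0.0544). Leaving out withdrawal replicate 3 and doxycycline replicate 1 together ended it (0.0732) and that of E230032D23Rik (0.0887). A fixed list of 22 genes of distal chromosome 7, which shares genes with this stretch, had 20 measured. Of these Dhcr7, already counted above, rose and none fell, against 1.20% higher and 1.57% lower over all genes. The median difference on this list was 0.07.

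**Figure D2:**
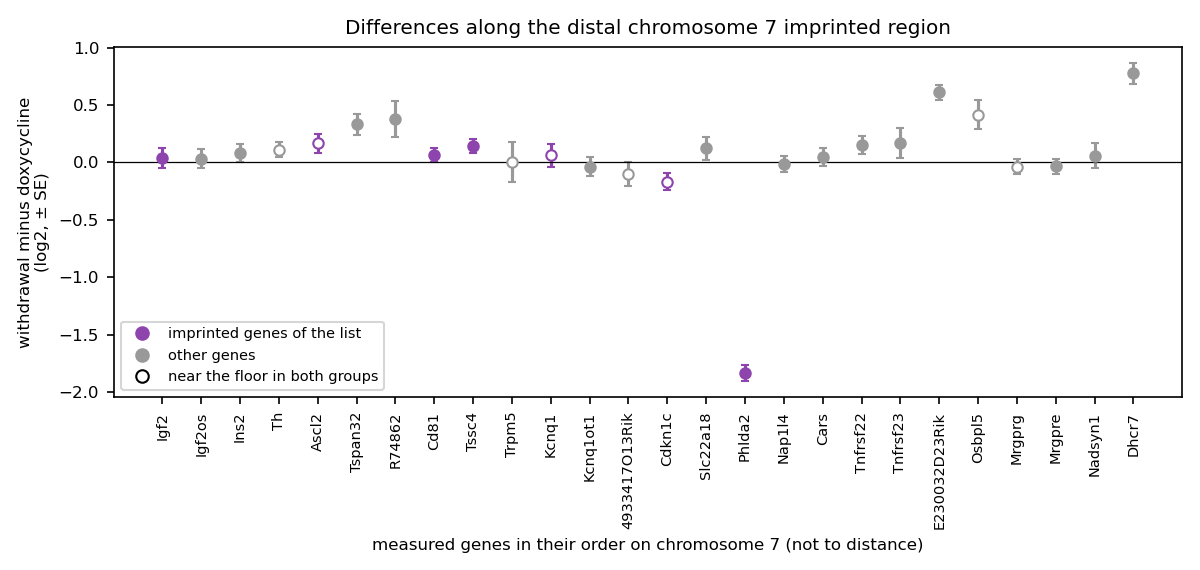
Difference (withdrawal minus doxycycline, log2, ± SE) for 26 measured genes in their order on distal chromosome 7, with imprinted genes of the list in purple, other genes in grey and genes near the floor as open circles. Phlda2 lies at -1.83, while its neighbours on both sides, Slc22a18 at 0.12 and Nap1l4 at -0.01, lie near 0.

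On chromosome 12, the domain of Dlk1 and Dio3 had 4 of 6 genes measured and none passed. Dlk1, a paternally expressed transmembrane protein of the Notch ligand family that is made by immature cells, was at 5.48, 5.28 and 5.14 after withdrawal, against 4.91, 5.02 and 4.84 under doxycycline. Its withdrawal arrays all lay above its doxycycline arrays. Only the withdrawal mean (5.30) was above the floor of 5.18, and the doxycycline mean (4.92) was under it, so the gene counts as above the floor only through the group in which it was higher. The difference of 0.38 ± 0.10 did not pass (limma adjusted p = 0.131), and its other probe set, near the floor, went the other way at -0.24. The maternally expressed noncoding RNA Meg3 was at 6.21, 6.41 and 6.21 after withdrawal, against 6.25, 6.40 and 6.57 under doxycycline, and differed by -0.13 ± 0.10. Of its 11 probe sets 9 were higher and 2 lower, between -0.13 and 0.36, and none passed. The host transcripts of small RNAs further along, Rian (-0.07 ± 0.17) and Mirg (0.21 ± 0.15), overlapped between groups. Rian counts as above the floor only through its doxycycline mean (5.24), since its withdrawal mean (5.17) was under it. Of its 4 probe sets 3 were higher and 1 lower, and none passed. The other probe set of Mirg, near the floor, was higher by 0.28 without overlap and did not pass (limma adjusted p = 0.117).

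Central chromosome 7, the domain deleted in Prader-Willi and Angelman syndromes in humans, had all 5 listed genes measured and none passed. Ube3a, a ubiquitin ligase gene expressed from the maternal copy in neurons, was at 11.07, 10.99 and 10.91 after withdrawal, against 11.02, 11.05 and 11.08 under doxycycline. These groups overlapped, and the difference was -0.06 ± 0.07. Snrpn, a gene of a splicing protein, differed by -0.10 ± 0.14, and 6 further probe sets that carry its name together with another symbol were not used. The paternally expressed Ndn and Magel2, both of the MAGE family, and the ring finger gene Mkrn3 were near the floor, with differences of 0.05, -0.01 and -0.01. At the other end of this chromosome, the paternally expressed zinc finger gene Peg3 was at 4.12, 4.03 and 3.97 after withdrawal, against 4.04, 4.15 and 4.32 under doxycycline. It overlapped between groups (-0.13 ± 0.09), and like its maternally expressed neighbour Zim1 (-0.02 ± 0.12) it was near the floor.

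On chromosome 6, Mest, a paternally expressed hydrolase gene of growing mesoderm, was at 4.24, 4.22 and 4.43 after withdrawal, against 5.23, 4.26 and 4.56 under doxycycline. Doxycycline replicate 1 stood apart from the other 5 arrays, and without it the difference was -0.12 in place of -0.39 (limma adjusted p = 0.788 without that array and 0.501 with all 6). Its neighbour Copg2, a subunit gene of the COPI vesicle coat, was at 8.74, 8.74 and 8.64 after withdrawal, against 8.63, 8.70 and 8.71 under doxycycline, and overlapped between groups (0.03 ± 0.07). In the Peg10 domain Ppp1r9a, a maternally expressed gene of an actin-binding protein known from neurons, was at 4.75, 5.28 and 5.31 after withdrawal, against 4.71, 4.78 and 4.73 under doxycycline. Here 2 withdrawal arrays were high and withdrawal replicate 1 lay among the doxycycline arrays. The difference of 0.37 ± 0.15 did not pass (limma adjusted p = 0.304), and without withdrawal replicate 1 it was 0.55 and did (limma adjusted p = 0.0260). Peg10, a gene derived from a retrotransposon (0.02), Sgce, a sarcoglycan gene (-0.08), and Asb4, a SOCS box gene (-0.26), were near the floor and did not pass.

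The Gnas domain on chromosome 2 makes several transcripts with different parental expression, among them the maternal or biallelic one for the stimulatory G protein alpha subunit. The probe set read for Gnas was at 12.76, 12.76 and 12.57 after withdrawal, against 12.43, 12.65 and 12.55 under doxycycline, and the groups overlapped (0.15 ± 0.09, limma adjusted p = 0.497). Another of its 5 probe sets was at 4.66, 4.65 and 4.67 after withdrawal, against 4.99, 5.02 and 5.13 under doxycycline. It fell by 0.38 (SE 0.07, limma adjusted p = 0.0367) with both groups near the floor, and which transcript it reads is not given in the sources used here. It did not hold when any 1 of the 6 arrays was left out (adjusted p between 0.0781 and 0.152). It was the only call besides that of Phlda2 among the 104 probe sets of the 37 genes, of which 28 lay above the floor.

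**Figure D3:**
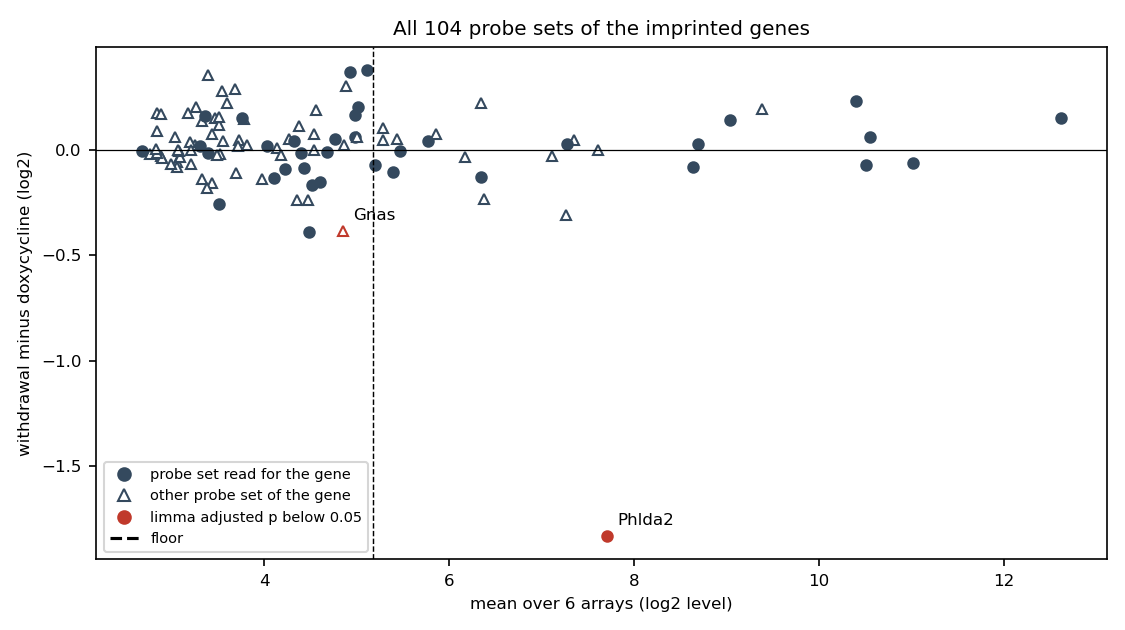
Difference (withdrawal minus doxycycline, log2) against the mean level over 6 arrays for the 104 probe sets of the imprinted genes; filled circles are the probe set read for each gene, open triangles its other probe sets, red marks a limma adjusted p below 0.05 and the dashed line the floor at 5.18. Phlda2 at -1.83 and a dim probe set of Gnas at -0.38 are the only red points.

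Other domains held 1 or 2 measured genes each. Commd1, a copper and NF-kappaB regulator whose maternal copy is favoured in brain, was at 10.38, 10.45 and 10.72 after withdrawal, against 10.27, 10.22 and 10.36 under doxycycline. All its withdrawal arrays were higher than all its doxycycline arrays, by 0.23 ± 0.10 on average (limma adjusted p = 0.354), and its second probe set, with 0.20, did not pass either. H13, a signal peptide peptidase gene, was at 10.49, 10.45 and 10.49 after withdrawal, against 10.55, 10.50 and 10.59 under doxycycline. Its withdrawal arrays were lower without overlap, by 0.07 on average, and it did not pass (-0.07 ± 0.06). Of its 6 probe sets 2 were higher and 4 lower, between -0.31 and 0.19, and none passed (smallest limma adjusted p = 0.183). Impact, a paternally expressed inhibitor of the kinase GCN2, was at 8.58, 8.55 and 8.65 after withdrawal, against 8.73, 8.60 and 8.70 under doxycycline (-0.08 ± 0.07). Trappc9, a vesicle tethering gene whose maternal copy is favoured in brain, was at 7.23, 7.38 and 7.27 after withdrawal, against 7.08, 7.38 and 7.32 under doxycycline (0.03 ± 0.10). Igf2r, the maternally expressed receptor that takes up and clears IGF2, was at 5.40, 5.59 and 5.41 after withdrawal, against 5.58, 5.39 and 5.43 under doxycycline. In all 3 of these genes the groups overlapped, and for Igf2r the difference was -0.003 ± 0.09.

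The remaining 7 genes were near the floor and did not pass. Grb10, an adaptor of growth factor receptors expressed from the maternal copy in most tissues and from the paternal copy in neurons, was at 4.31, 4.60 and 4.67 after withdrawal, against 4.55, 4.77 and 4.73 under doxycycline. Its difference was -0.15 ± 0.11, and all 3 of its probe sets had differences below 0. Nnat, a paternally expressed gene of a small membrane protein of the brain, was at 3.40, 3.54 and 3.39 after withdrawal, against 3.36, 3.23 and 3.25 under doxycycline. Its withdrawal arrays were higher without overlap, by 0.16 ± 0.08 (limma adjusted p = 0.396). The zinc finger gene Plagl1 was at 4.03, 4.16 and 4.35 after withdrawal, against 4.24, 4.40 and 4.19 under doxycycline. Dcn, a proteoglycan gene of connective tissue, was at 4.08, 4.33 and 4.62 after withdrawal, against 4.37, 4.15 and 4.39 under doxycycline. The Ras exchange factor gene Rasgrf1 was at 3.995, 4.01 and 4.11 after withdrawal, against 3.97, 4.19 and 3.90 under doxycycline. The groups overlapped for these 3, with differences of -0.09, 0.04 and 0.02, as they did for Ddc, the gene of aromatic amino acid decarboxylase (0.15 ± 0.09), and for Airn, the noncoding transcript that silences Igf2r on the paternal chromosome (-0.01).

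**Figure D4:**
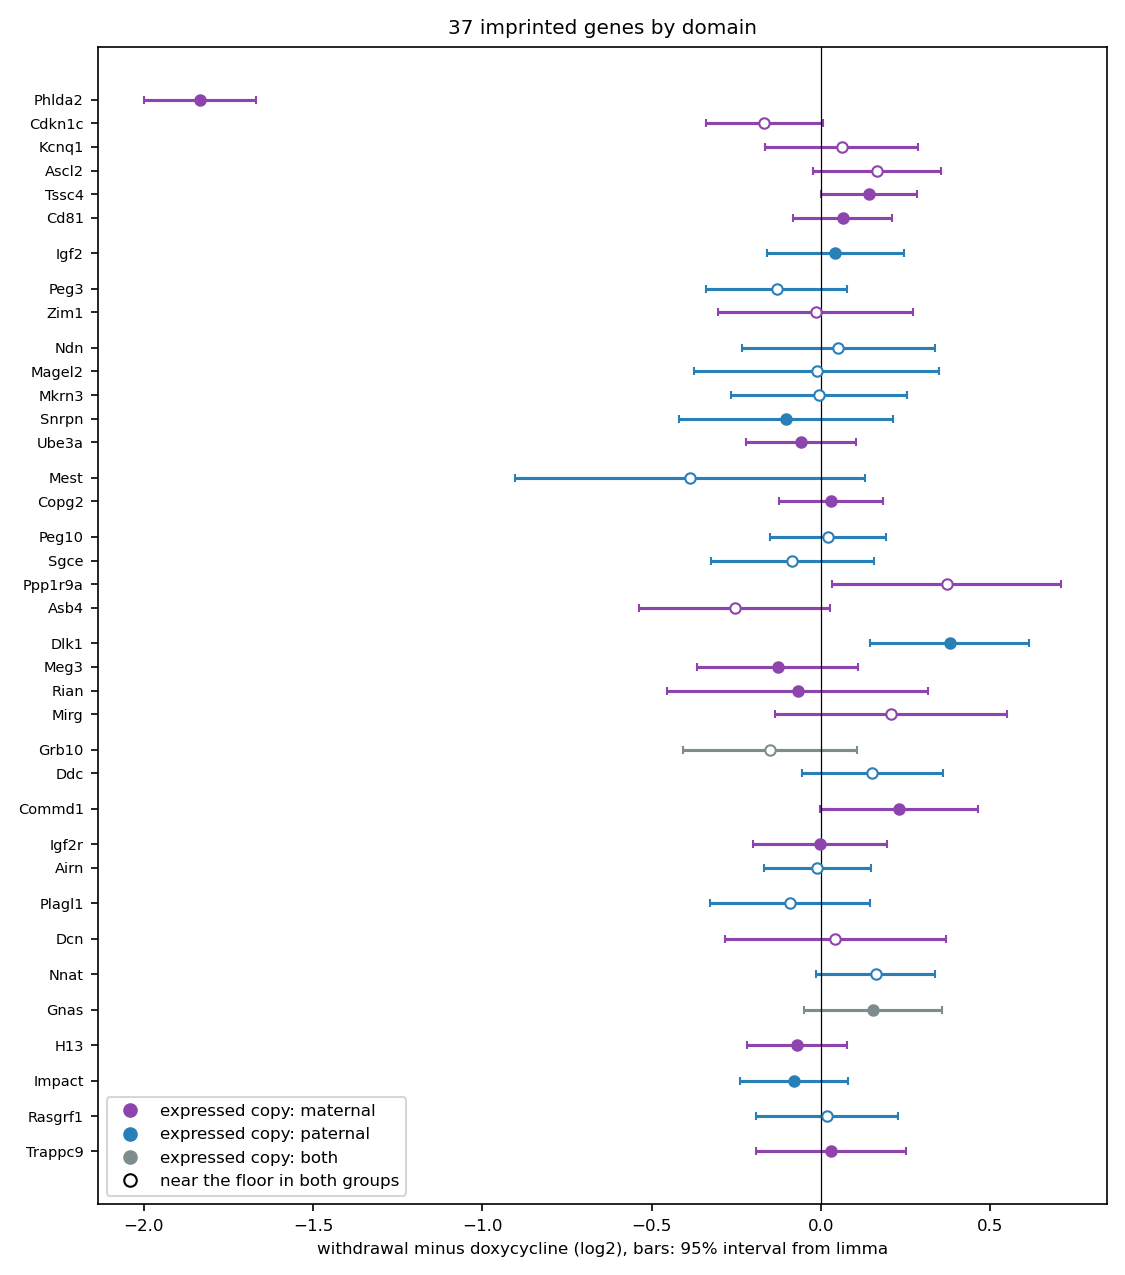
Difference (withdrawal minus doxycycline, log2) with its 95% interval from limma for the 37 measured imprinted genes, grouped by domain, with colour for the parental copy known to be expressed and open circles for genes near the floor. Phlda2 is at -1.83, and the intervals of 34 of the other 36 genes reach 0; those of Dlk1 and Ppp1r9a lie above 0 before adjustment.

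By parental class, 1 of 19 measured maternally expressed genes fell (Phlda2), and 0 of 16 paternally expressed genes and 0 of 2 with both patterns passed. At this threshold 1.57% of all genes were lower and 1.20% higher, so counts this small do not set the classes apart. The median difference was 0.03 for the maternal class and -0.01 for the paternal class, both close to the 0.01 of all genes. Among the maternal genes 11 of 19 were above the floor, and among the paternal genes 4 of 16 (Igf2, Snrpn, Dlk1 and Impact), against 62.7% of all genes. Over both classes and the remaining 2 genes, 16 of 37 were above the floor. The classes were made up differently. The maternal class held 5 genes whose imprint is known mainly from the placenta, 2 of them above the floor. It also held 3 known mainly from brain (Ube3a, Commd1 and Trappc9), all above the floor. The paternal class held 1 such gene, Ddc, known from heart and near the floor. Which copy these cells expressed was not measured. The 5 measured genes whose imprint is known mainly from the placenta (Ascl2, Tssc4, Cd81, Ppp1r9a and Dcn) all had differences above 0, from 0.04 to 0.37, with none passed, where 46.0% of all genes lay below 0. This shared sign depended on the probe set and the arrays used. The other 2 probe sets of Ascl2 were at -0.06 and -0.03, and Dcn was at -0.10 without withdrawal replicate 3, at -0.04 without doxycycline replicate 2 and at -0.06 without withdrawal replicate 3 and doxycycline replicate 1 together.

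The intervals show what these arrays could and could not resolve. For 14 of the 15 genes above the floor that did not pass, the 95% interval of the difference (unadjusted, from limma) lay within 0.5 on either side of 0, and the exception was Dlk1, with an upper bound of 0.61. Dlk1 and Rian count among these 15 genes although 1 of their group means lay under the floor. These intervals are those of the probe set read for each gene. Of the 12 other member probe sets above the floor, those of H13, Ube3a and Meg3 held intervals that went past 0.5. For a probe set of H13 the interval ran from -0.525 to -0.0914, for one of Ube3a it reached -0.5039 and for one of Meg3 0.5003. For the 21 genes near the floor, the intervals reached from -0.90 (Mest) to 0.71 (Ppp1r9a). How the arrays respond to changes at such levels was not measured.

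A further list of 32 imprinted genes outside the 42 had 29 measured, of which none rose and none fell in limma, and 5 were higher and 1 lower at an unadjusted p below 0.05, a threshold that 16.3% of all genes passed in either direction. Their median difference was 0.04. Ins2, Nap1l4, Osbpl5, Slc22a18, Th, Trpm5 and Tspan32 are also on the list of distal chromosome 7 genes, so the 2 lists are not separate observations. With trend and robust options in eBayes 2 rose and 1 fell. The smallest adjusted p in the main setting was 0.102, for Gatm, the enzyme that starts creatine synthesis (0.34 ± 0.08). Osbpl5, a maternally expressed gene near Phlda2 that was near the floor (0.42 ± 0.13), Tspan32, a tetraspanin gene of blood cells (0.33 ± 0.09), and Blcap, a gene that shares its domain with Nnat (-0.26 ± 0.07), did not pass.

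Of 24 genes whose proteins set, keep or erase imprints, all measured, 2 rose and 1 fell, against 1.20% higher and 1.57% lower over all genes, and the median difference was 0.01. Of the 24 genes 22 were above the floor, where 4.28% of all genes passed in either direction. Dnmt3b, a methyltransferase that adds new methyl marks, fell to a mean of 7.29 in withdrawal cells, against 7.98 under doxycycline (-0.69 ± 0.07, limma adjusted p = 0.00491), a call that was lost only without withdrawal replicate 3 and doxycycline replicate 1 together among the 15 alternatives that gave a value (adjusted p = 0.106). Dnmt3l, the cofactor needed to set imprints in germ cells, was at 8.27 after withdrawal, against 7.73 under doxycycline (0.54 ± 0.08, limma adjusted p = 0.0169). Leaving out any 1 array except withdrawal replicate 3 ended that call, and the adjusted p reached 0.143 over the alternatives. Dppa3, which shields maternal methyl marks in the early embryo, rose by 0.39 near the floor (SE 0.08, limma adjusted p = 0.0492). It no longer passed when any 1 of the 6 arrays was left out, and its adjusted p reached 0.793 over the alternatives. The demethylation enzyme gene Tet3 (0.34 ± 0.14), the Polycomb gene Eed (-0.20 ± 0.07) and Uhrf1, which guides the maintenance methyltransferase to DNA (0.17 ± 0.07), did not pass. Neither did that methyltransferase gene, Dnmt1 (-0.002 ± 0.06), the imprint-protecting zinc finger gene Zfp57 (0.13 ± 0.09) nor Trim28, which it recruits (-0.20 ± 0.06).

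Igf2, Igf2r and Grb10 belong to the insulin-like growth factor pathway. Of 21 other genes of this pathway 20 were measured, 1 rose and none fell, against 1.20% higher and 1.57% lower over all genes. Igfbp7, a secreted binding protein, was at 10.19 after withdrawal, against 9.47 under doxycycline (0.72 ± 0.07, limma adjusted p = 0.00331). Its call was lost without withdrawal replicate 3 and doxycycline replicate 1 together (adjusted p up to 0.0700), and with the mean of its probe sets the difference was 0.34 and still passed. Igf1r, the receptor gene, differed by -0.30 ± 0.06 and did not pass (limma adjusted p = 0.0688). Pappa, a protease that cleaves IGF binding proteins (0.18 ± 0.12), Igfbp1 (-0.18 ± 0.10) and the receptor substrate gene Irs1 (0.17 ± 0.08) were near the floor and did not pass.

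The median level was between 5.22 and 5.27 on every array, and arrays of 1 group correlated with Pearson's r between 0.995 and 0.998 (over probe sets, which are not independent). On the second principal component, with 31.9% of the variance, withdrawal replicate 3 and doxycycline replicate 1 stood apart. Mecom was read by 3 probe sets near the floor, with differences from -0.10 to 0.13, and since the transgene is codon-optimized these do not check the labels. All 10 haematopoietic markers were above the floor, with a mean level from 10.97 to 11.09 on withdrawal arrays and from 10.95 to 11.05 on doxycycline arrays. Among them the progenitor marker Cd34 fell (-0.51 ± 0.10, limma adjusted p = 0.0463), a call lost under 10 of 16 alternatives, among them without withdrawal replicate 2, withdrawal replicate 3 or any 1 doxycycline array. Of the 10 haematopoietic markers 4 were lower and 6 higher, and besides Cd34 none passed. Higher without passing were Mpo (0.32 ± 0.07), Spi1 (0.27 ± 0.09) and Kit (0.26 ± 0.10). Of the 6 measured trophoblast markers 0 were above the floor. Their mean level ran from 4.26 to 4.44 on withdrawal arrays and from 4.30 to 4.35 on doxycycline arrays. For 9 mesenchyme markers, of which 2 were above the floor, it ran from 4.78 to 4.86 after withdrawal and from 4.83 to 4.93 under doxycycline. Among them Thy1, also a gene of blood cells, fell (-0.76 ± 0.07, limma adjusted p = 0.00221), a call lost without withdrawal replicate 3 and doxycycline replicate 1 together (adjusted p = 0.0522). Of these 9 markers 3 were lower and 6 higher, and besides Thy1 none passed. Of the 7 measured liver markers 5 were above the floor. The mean level of the 7 ran from 5.88 to 5.94 after withdrawal and from 6.02 to 6.08 under doxycycline. Apoa1 (-1.19 ± 0.13, limma adjusted p = 0.00588) and Afp (-0.39 ± 0.07, limma adjusted p = 0.0432) fell, and Alb and Fgb were near the floor. The call of Afp was lost without any 1 array. Of the 7 liver markers 3 were lower and 4 higher, among them Hnf4a (0.20) and Apoa2 (0.18), and the other 5 did not pass. Of 8 endothelial markers 4 were above the floor. The mean of the 8 ran from 5.38 to 5.53 after withdrawal and from 5.37 to 5.45 under doxycycline. Of 8 neuronal markers 2 were above the floor. Their mean ran from 4.36 to 4.44 after withdrawal and from 4.39 to 4.48 under doxycycline. The part of these differences in the fall of Phlda2 was not tested.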

How the data were processed

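Per the labels' protocols, biotin-labelled cDNA amplified from total RNA was hybridised to 6 arrays. In the deposited table each probe set has 1 log2 value per array, made with RMA per the submitters' processing notes. RMA corrects background, equalises the distributions of the arrays and summarises each probe set, so a shift of most transcripts in 1 direction would be removed. The sources used here give neither its version nor the chip definition. The array signal has no counts or detection calls, and the number of arrays limits the precision.

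Of 45101 rows, 64 control probe sets were left out. Of the other 45037, the platform annotation gave 34945 1 symbol, 932 several and 9160 none, and only those with 1 symbol were named. A model of 2 group means without covariates was fitted by lmFit and moderated by eBayes (limma 3.58.1, R 4.3.3; 4 residual and 3.54 prior degrees of freedom), two-sided, with Benjamini-Hochberg adjustment over all probe sets. The members, the lists, the domains and the alternatives were chosen with earlier results of these data known. The named genes were the members, with every array for those past the threshold and the brightest of each domain, and, on the other lists, those past the threshold and up to 4 others of large difference; in the lists of imprint-keeping and growth factor genes, and for the neighbours of Phlda2, some were named for their role with their values already seen. The fit was tested on simulated data with independent normal noise and with changes placed in probe sets above the median level. It recovered 87% of changes of 1 log2 unit and 54% of changes of 0.5. Alternatives were each array left out, a replicate block, other normalizations, variance models, filters, array weights, a fold threshold and other choices of probe set. No pseudocount was needed. Promoters are from RefSeq (GRCm38.p6), and no build of the array was used. Figures were drawn with matplotlib 3.10.9.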

Additional observations from a re-analysis of the deposited data

How the results depend on the processing

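Phlda2 fell under all 16 alternatives (adjusted p up to 0.0123). Of the 36 imprinted genes that did not pass, 34 passed under none, 16 kept their sign under every alternative that gave a value and 20 changed it in at least 1. The exceptions were Ppp1r9a without withdrawal replicate 1 (0.55) and Gnas. With probe sets of shared names left out, Gnas was read from its dim probe set at -0.38 instead of 0.15, so 2 imprinted genes were lower, because another probe set was read. With 1 array left out 1 imprinted gene was lower and 0 to 1 were higher. Over all genes these fits gave 94 to 182 lower and 57 to 152 higher genes, against 286 and 218 in the main setting, with fewer arrays. The lower and higher genes were 107 and 63 with the replicate block, 55 and 22 without withdrawal replicate 3 and doxycycline replicate 1 together, 580 and 498 at or above the median level, 732 and 634 with trend and robust options, 489 and 417 with array weights and 97 and 60 with the fold threshold; with the probe sets of a gene averaged 332 were higher. The cause of the larger counts was not tested. Replicate numbers appear in both groups, and the deviations of same-numbered arrays correlated at -0.304, 0.46 and -0.033. Between arrays of different number, withdrawal replicate 3 correlated at 0.546 with doxycycline replicate 1 and at -0.596 with doxycycline replicate 2. Whether arrays of the 2 groups were processed together is not given in the labels and was not tested. The block kept the call of Phlda2.

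On the further list of imprinted genes, 1 fell and 2 rose with trend and robust options, 1 rose at or above the median level and 1 with array weights. On the list of imprint-keeping genes, 0 to 1 rose with 1 array left out; 0 rose with the replicate block, without those 2 arrays, with the fold threshold and without shared names, and 1 at or above the median level and with trend and robust options. On it 0 fell without those 2 arrays and without shared names, and 3 with trend and robust options. Among neighbours on distal chromosome 7, 0 to 1 rose with 1 array left out, 0 without those 2 arrays, and 2 with trend and robust options and with array weights. In the growth factor pathway 1 fell at or above the median level, with trend and robust options and with array weights, and 0 rose without those 2 arrays. The cause was not tested. Signal near the floor limits what can be said of 21 of the 37 genes.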
